A study of Arabidopsis thaliana with 9 samples.

Results

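Transcripts of 38 auxin response, transport and perception genes were examined in rosettes of Arabidopsis thaliana, the thale cress. The set was a fixed list of locus identifiers: 18 Aux/IAA genes, 7 GH3 genes, 4 PIN genes, 3 genes of the TIR1/AFB receptors and 6 ARF genes. Of the 38 genes, 32 had counts among the 22155 loci counted in all, and 24 passed the filter on low counts that left 13975 loci for testing. PIN4, PIN7, ARF2, ARF6, ARF7 and ARF8 were not analysed here.

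Auxin is the plant hormone of cell expansion, patterning and tropic growth. It is perceived by the F-box receptors TIR1 and the AFBs, which mark Aux/IAA repressors for degradation and so free ARF transcription factors, and many Aux/IAA, GH3 and SAUR genes are themselves induced by this pathway. GH3 enzymes join auxin to amino acids and lower the free pool, while PIN carriers export auxin from cells. In leaves this network is known for its part in expansion growth, vein patterning and the response to shade.

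Rosettes came from the wild type Col-0, from PP2-A5oe, a line overexpressing the lectin gene PP2-A5, and from pp2-a5, a mutant line of that gene, with 3 biological replicates each. All 9 libraries carried the control treatment, and the plants were 3 weeks old, although the labels call them rosettes in one place and seedlings in another. The labels name 1 line per genotype and do not give the promoter of the transgene, so the altered gene and any other difference between the lines cannot be told apart. The PP2-A5 transcript was not analysed here, so the labels were not checked against it. Libraries held 5408847 to 6196722 counts. The chi-square per degree of freedom of Col-0 replicate 3 against the other Col-0 libraries was 5.65 and 6.91, against 1.59 to 3.44 in the other pairs within a group. Col-0 replicate 3 also had the highest share of mitochondrial counts (0.178%), followed by PP2-A5oe replicate 2 (0.132%), while the other 7 libraries lay between 0.0741% and 0.0878%. Of the leaf markers, 3 of 6 had counts and none of these was at 0; their summed level was 13920 to 15050 CPM (counts divided by library size, scaled between libraries by TMM) for Col-0, 13180 to 14260 CPM for PP2-A5oe and 11840 to 12910 CPM for pp2-a5. The pp2-a5 libraries lay below all others. The light-harvesting gene CAB2 fell in PP2-A5oe by 0.24 ± 0.06 on the log2 scale (adjusted p = 0.00256), and 2 of the 3 fell in pp2-a5, CAB2 and RBCS2B, a gene of the small Rubisco subunit. Both belong to families of near-identical copies, so their counts are uncertain. Their part in the results on auxin genes was not tested. In bulk RNA, fewer cells of a type and less RNA per cell cannot be told apart.

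The upstream sequences of 5 of the 7 members that rose or fell in PP2-A5oe are shown because several carry letters bound by ARF factors in other work. The windows are the 250 bases before the annotated gene start, read 5′ to 3′ on the gene's strand from the RefSeq assembly TAIR10.1. Capitals mark TGTCTC or TGTCGG, the core letters of auxin response elements, and CACGTG, the G-box, each searched on both strands. In the windows shown no marked motif overlaps another, and none of these windows overlapped another annotated gene. IAA1 lies on the plus strand with its window at chr4:8360746-8360995, IAA17 on the plus strand at chr1:1135828-1136077 and IAA19 on the plus strand at chr3:5263751-5264000. GH3.3 lies on the minus strand at chr2:9866563-9866812 and GH3.17 on the plus strand at chr1:9824919-9825168.
IAA1: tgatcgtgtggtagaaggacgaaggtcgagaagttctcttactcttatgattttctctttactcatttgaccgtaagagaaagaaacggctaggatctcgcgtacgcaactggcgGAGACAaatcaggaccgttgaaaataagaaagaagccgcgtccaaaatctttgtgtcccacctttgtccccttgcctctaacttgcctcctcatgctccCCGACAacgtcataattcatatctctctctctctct
IAA17: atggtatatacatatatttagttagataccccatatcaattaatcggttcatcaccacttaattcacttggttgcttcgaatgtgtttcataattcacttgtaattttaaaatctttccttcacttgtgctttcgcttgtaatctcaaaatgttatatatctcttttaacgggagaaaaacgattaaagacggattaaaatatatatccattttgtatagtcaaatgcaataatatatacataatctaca
IAA19: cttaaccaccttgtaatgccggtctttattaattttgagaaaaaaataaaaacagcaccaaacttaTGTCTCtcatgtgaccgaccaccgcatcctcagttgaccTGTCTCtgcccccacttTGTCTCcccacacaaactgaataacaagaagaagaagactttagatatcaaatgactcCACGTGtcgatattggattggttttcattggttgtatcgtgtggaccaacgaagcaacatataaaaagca
GH3.3: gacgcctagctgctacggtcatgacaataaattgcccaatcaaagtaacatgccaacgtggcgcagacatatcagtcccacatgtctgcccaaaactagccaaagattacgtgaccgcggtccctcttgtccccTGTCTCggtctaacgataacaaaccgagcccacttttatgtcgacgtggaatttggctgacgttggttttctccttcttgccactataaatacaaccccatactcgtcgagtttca
GH3.17: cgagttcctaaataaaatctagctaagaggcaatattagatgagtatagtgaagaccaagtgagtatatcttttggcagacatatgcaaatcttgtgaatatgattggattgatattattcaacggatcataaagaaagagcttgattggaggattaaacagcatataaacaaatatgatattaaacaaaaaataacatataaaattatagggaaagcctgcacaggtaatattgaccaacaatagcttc

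The IAA1 window held GAGACA, the reverse complement of TGTCTC, with its first printed base 135 bases before the gene start, and CCGACA, the reverse complement of TGTCGG, 36 bases before it. Counted the same way, the IAA19 window held TGTCTC at 184, 145 and 128 bases and CACGTG at 70 bases before the start. The GH3.3 window held TGTCTC at 116 bases, while none of the 3 motifs was in the windows of IAA17, GH3.17, IAA14 or AFB2. Over the 24 tested members, 5 windows (20.8%) held TGTCTC, 4 (16.7%) held TGTCGG and 3 (12.5%) held CACGTG. Over the 13862 tested nuclear loci the same shares were 10.7%, 4.56% and 7.06%. TGTCTC was thus in the window of IAA1 and IAA19, which rose in PP2-A5oe, and of GH3.3, which fell there. It was also in the windows of GH3.2 at 144 bases and GH3.5 at 47 bases, which are not among the members that rose or fell in PP2-A5oe. Nor are the other carriers of TGTCGG (IAA16, IAA27 and ARF19) and of CACGTG (IAA7 and GH3.2). A match describes letters in a window and not a bound site.

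Against Col-0, 7 of the 24 tested members (29.2%) were called in PP2-A5oe, that is, had a Benjamini-Hochberg adjusted p under 0.05 in edgeR's quasi-likelihood test over all 13975 loci. IAA1, IAA14, IAA17, IAA19 and GH3.17 rose, and GH3.3 and AFB2 fell. Over all tested loci 25.0% were called, 14.5% as higher and 10.5% as lower, so the members' share was near the background. The median log2 fold change was 0.06 over the members and -0.02 over all loci. With upper-quartile scaling the split of all calls was 1769 higher and 2069 lower, against 2027 higher and 1469 lower with TMM. With that scaling 3 members in place of 2 were called lower, GH3.2 being added.

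In pp2-a5, 3 of the 24 members (12.5%) were called against Col-0, below the 20.8% of all tested loci, of which 12.3% were higher and 8.47% lower. IAA1 and IAA26 rose and AFB2 fell. The median log2 fold change was -0.06 over the members and -0.01 over all loci. With upper-quartile scaling the calls over all loci were 1536 higher and 1553 lower, against 1719 and 1183 with TMM, and 4 members in place of 1 were called lower. Both comparisons share the Col-0 libraries, so likeness between them was not tested.

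Compared directly, PP2-A5oe and pp2-a5 differed in 6 of the 24 members (25.0%), against 12.7% of all tested loci, 7.21% higher and 5.45% lower in PP2-A5oe. IAA14, IAA16, IAA17, GH3.17 and PIN3 were higher in PP2-A5oe and GH3.3 was lower. The median log2 difference was 0.11 over the members and 0.00 over all loci.

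**Figure D1:**
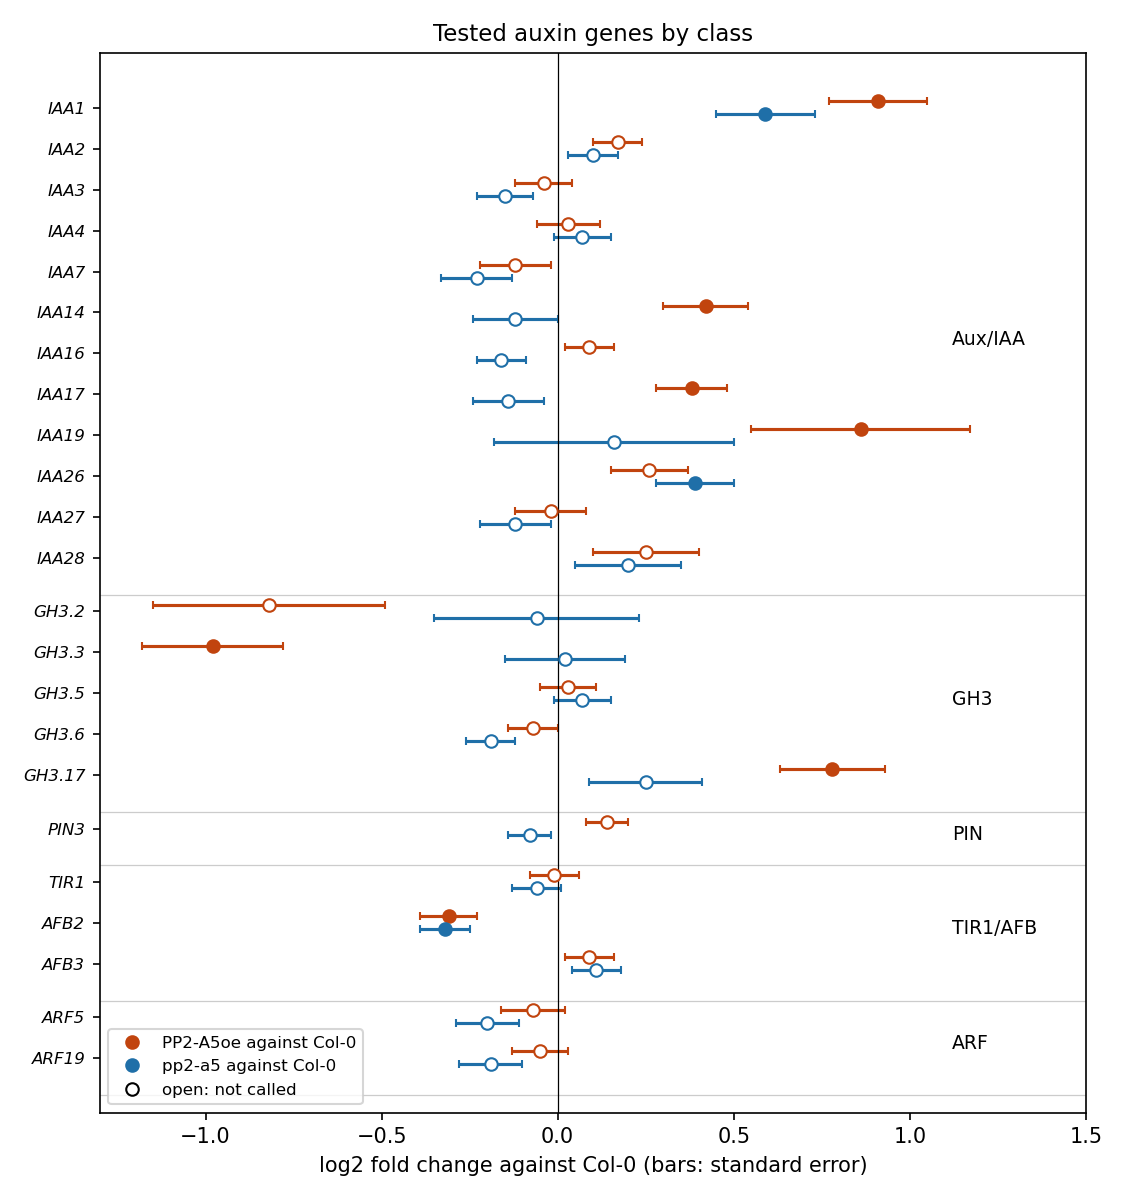
Log2 fold change against Col-0 (x axis) of 23 of the 24 tested members, ordered by class, with bars of 1 standard error from the fit; orange is PP2-A5oe, blue is pp2-a5, and filled points had an adjusted p under 0.05. IAA1 lies to the right in both lines (0.91 and 0.59), AFB2 to the left in both (-0.31 and -0.32), and GH3.3 to the left in PP2-A5oe only (-0.98 against 0.02).

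The Aux/IAA genes encode the short-lived repressors of the pathway. In PP2-A5oe 4 of the 12 tested Aux/IAA genes rose and none fell (33.3% called), with a median log2 fold change of 0.21. Over all tested loci 25.0% were called there, 14.5% higher and 10.5% lower, with a median of -0.02. In pp2-a5 2 rose and none fell (16.7% called), with a median of -0.02. This was below the 20.8% of all tested loci, 12.3% higher and 8.47% lower. Between the lines 3 were higher in PP2-A5oe and none lower (25.0% called), against 12.7% of all tested loci, 7.21% higher and 5.45% lower. Summed over all 18 genes, the Aux/IAA level was 739.8, 732.9 and 856.6 CPM in the Col-0 libraries, 849.2, 867.0 and 835.1 CPM for PP2-A5oe and 768.0, 749.8 and 730.7 CPM for pp2-a5. Col-0 replicate 3 lay within the range of PP2-A5oe, so the summed levels of those groups overlapped, while every PP2-A5oe library lay above every pp2-a5 library.

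IAA1 (AT4G14560, chr4:8360996-8362033, plus strand), an early auxin-induced repressor, was the member with the lowest adjusted p in PP2-A5oe. Its level was 15, 10.9 and 14.8 CPM in Col-0 replicates 1 to 3. It was 21.4, 25.2 and 29.9 CPM for PP2-A5oe and 20.8, 21.2 and 19.4 CPM for pp2-a5. All 6 libraries of the altered lines lay above all 3 Col-0 libraries. IAA1 rose 1.88-fold in PP2-A5oe (log2 fold change 0.91 ± 0.14 SE, adjusted p = 2.91e-06, n = 3 per group) and 1.51-fold in pp2-a5 (0.59 ± 0.14, adjusted p = 0.00191). The direct difference between the lines did not pass the test (0.32 ± 0.13, adjusted p = 0.101), although their libraries did not overlap; without PP2-A5oe replicate 1 it was 0.43 with an adjusted p of 0.0335.

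IAA19 (AT3G15540, chr3:5264001-5265695, plus strand), a repressor known from tropic growth of the hypocotyl, was near the lower end of the tested levels. It stood at 1.77, 2.18 and 1.49 CPM for Col-0, 3.81, 3.25 and 2.94 CPM for PP2-A5oe and 1.46, 2.32 and 2.35 CPM for pp2-a5. The PP2-A5oe libraries lay above the other 6. The rise in PP2-A5oe was 0.86 ± 0.31 on the log2 scale (adjusted p = 0.0381), and pp2-a5 stood at 0.16 ± 0.34 (adjusted p = 0.802). The direct difference was 0.70 ± 0.30 (adjusted p = 0.136). The rise was lost in 8 of the 18 alternatives that tested the gene, with DESeq2 (adjusted p = 0.153), with no filter (0.064), without Col-0 replicate 1 (0.0976) or 3 (0.105) and without PP2-A5oe replicate 1 (0.144) or 2 (0.0709) among them.

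IAA17 (AT1G04250, chr1:1136078-1138663, plus strand), also named AXR3 after an auxin-resistant mutant, stood at 41.3, 38.7 and 50.8 CPM for Col-0. It stood at 63.1, 55.0 and 51.4 CPM for PP2-A5oe and 41.2, 39.4 and 37.4 CPM for pp2-a5. The PP2-A5oe libraries were the highest, but the lowest of them exceeded Col-0 replicate 3 by little. IAA17 rose by 0.38 ± 0.10 in PP2-A5oe against Col-0 (adjusted p = 0.00305) and was 0.52 ± 0.10 above pp2-a5 (adjusted p = 0.000135). In pp2-a5 the log2 fold change was -0.14 ± 0.10 (adjusted p = 0.349).

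IAA14 (AT4G14550, chr4:8347822-8350263, minus strand), the repressor that controls lateral root initiation, stood at 22.6, 23.9 and 27.1 CPM for Col-0. It stood at 31.7, 29.2 and 37.3 CPM for PP2-A5oe and 26.3, 19.0 and 22.4 CPM for pp2-a5. The PP2-A5oe libraries lay above the other 6, while Col-0 and pp2-a5 overlapped. IAA14 rose by 0.42 ± 0.12 against Col-0 (adjusted p = 0.00687) and stood 0.54 ± 0.12 above pp2-a5 (adjusted p = 0.00119). The first of these calls was lost without Col-0 replicate 1 (adjusted p = 0.0544) or PP2-A5oe replicate 3 (0.0767). IAA14 has 4 annotated transcripts, and how the counting treated such loci is not given in the sources used here.

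IAA26 (AT3G16500, chr3:5612203-5614803, minus strand), a repressor that binds the replicase of tobacco mosaic virus, rose in pp2-a5. Its level was 25.3, 25.1 and 32.1 CPM for Col-0, 27.7, 35.2 and 35.4 CPM for PP2-A5oe and 36.0, 37.2 and 34.2 CPM for pp2-a5. All pp2-a5 libraries lay above all Col-0 libraries, while PP2-A5oe overlapped both. The log2 fold change was 0.39 ± 0.11 in pp2-a5 (adjusted p = 0.00934) and 0.26 ± 0.11 in PP2-A5oe (adjusted p = 0.0949), and the lines did not differ past the test (-0.13 ± 0.11, adjusted p = 0.527). The call in pp2-a5 was lost without Col-0 replicate 1 (adjusted p = 0.0737) or 2 (0.0558), and PP2-A5oe was called without Col-0 replicate 3 (0.00973) or PP2-A5oe replicate 1 (0.0246).

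Of the Aux/IAA genes not called against Col-0, the most abundant were IAA16 and IAA2. IAA16 (AT3G04730, chr3:1288155-1290891, minus strand) stood at 285.6, 286.3 and 339.3 CPM for Col-0, 321.9, 338.2 and 311.7 CPM for PP2-A5oe and 273.5, 278.8 and 264.7 CPM for pp2-a5. Every PP2-A5oe library lay above every pp2-a5 library, and Col-0 overlapped PP2-A5oe through replicate 3. The lines differed by 0.25 ± 0.07 (adjusted p = 0.0096), a call lost without PP2-A5oe replicate 2 (0.0818) or pp2-a5 replicate 3 (0.0601). Against Col-0, IAA16 was at 0.09 in PP2-A5oe (adjusted p = 0.344) and at -0.16 in the mutant (0.102). Without Col-0 replicate 3 it was called higher in PP2-A5oe (0.18, adjusted p = 0.0201).

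IAA2 (AT3G23030) stood at 134.3, 136.1 and 149.8 CPM for Col-0, 163.9, 156.8 and 150.8 CPM for PP2-A5oe and 161.7, 144.7 and 144.6 CPM for pp2-a5. PP2-A5oe did not overlap Col-0, but the log2 fold change of 0.17 ± 0.07 had an adjusted p of 0.0701, which became 0.0103 without Col-0 replicate 3. The remaining Aux/IAA genes, IAA3, IAA4, IAA7, IAA27 and IAA28, were not called in either line and lay between -0.12 and 0.25 in PP2-A5oe and between -0.23 and 0.20 in pp2-a5. IAA3 and IAA27 overlap genes on the opposite strand, whose reads could not be told apart from theirs here.

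IAA1 and IAA14 are neighbours on chromosome 4, transcribed away from each other with 10732 bp between them. IAA17 has IAA3 as its divergent neighbour on chromosome 1 (6388 bp between them), and IAA2 and IAA7 form such a pair on chromosome 3 (12510 bp). Each of these gaps holds 1 annotated gene. In PP2-A5oe both members of the first pair were called higher, 1 member of the second (IAA17, 0.38, against IAA3, -0.04) and neither of the third (IAA2, 0.17, and IAA7, -0.12). In pp2-a5 IAA1 was called higher (0.59) and IAA14 was not called (-0.12). None of IAA17, IAA3, IAA2 and IAA7 was called there.

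**Figure D2:**
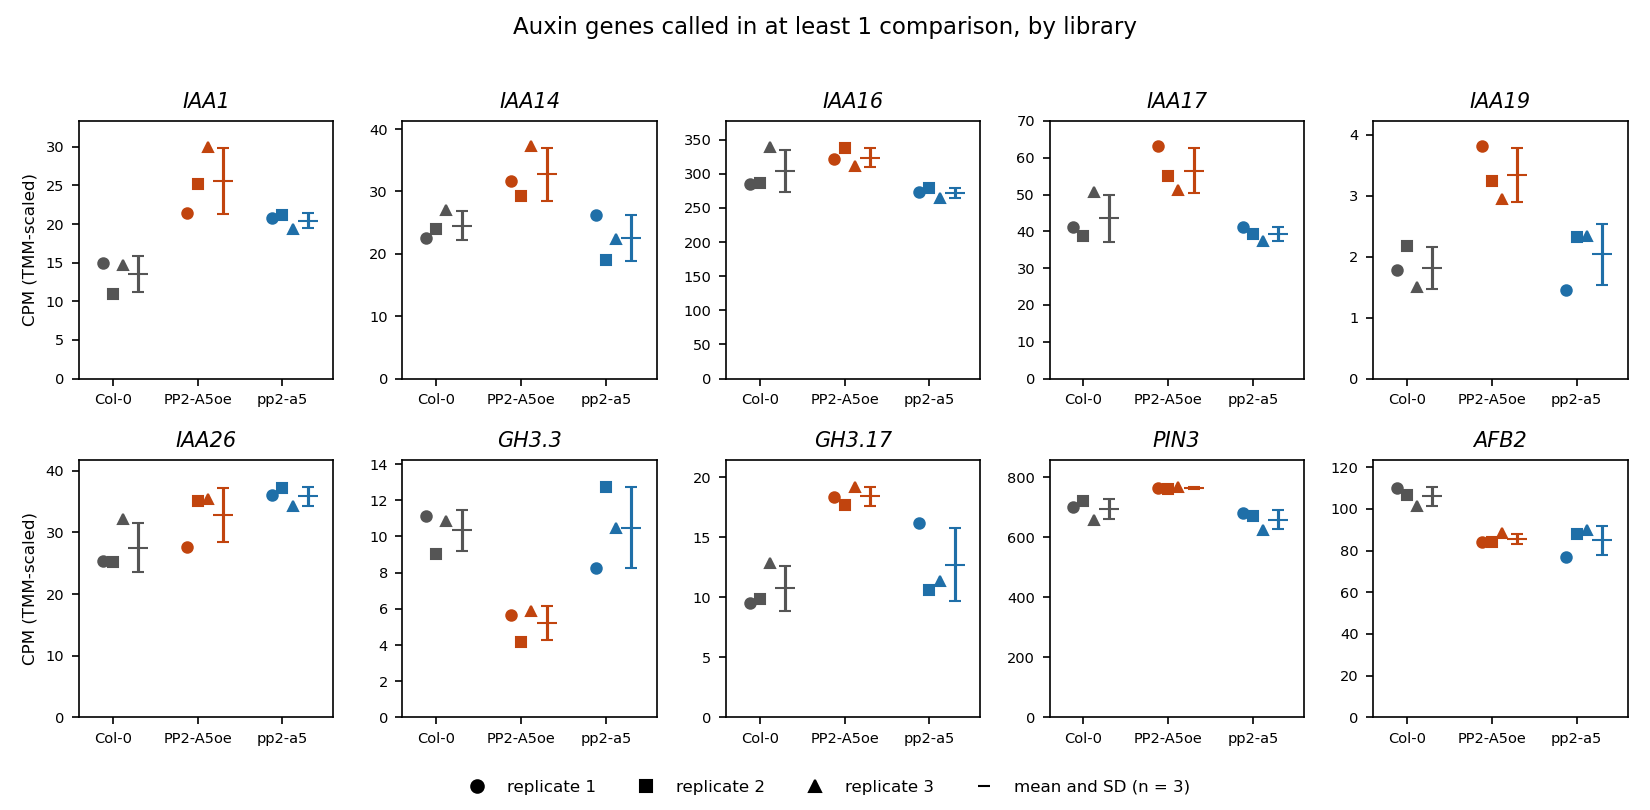
Level in CPM (y axis from 0, a separate scale for each gene) of the 10 members called in at least 1 of the 3 comparisons, by genotype (x axis), with a symbol for each replicate and the mean and SD of 3 libraries as a bar. The IAA1 libraries of both altered lines lie above Col-0, the AFB2 libraries of both lie below, and the GH3.3 libraries of PP2-A5oe lie below the other 6.

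The GH3 genes encode the amido synthetases that conjugate auxin. Of the 5 tested genes, 1 rose and 1 fell in PP2-A5oe, and none was called in pp2-a5 by edgeR's quasi-likelihood test, where 1 had an unadjusted p under 0.05. DESeq2 and limma-voom called 0 there as well. Over all tested loci 25.0% were called in PP2-A5oe and 20.8% in pp2-a5. Summed over all 7 genes, GH3 counts were 187.2 ± 0.123 CPM (SD, n = 3) in Col-0, 186.0 ± 7.01 CPM for PP2-A5oe and 181.3 ± 9.37 CPM for pp2-a5, and the groups overlapped. The Col-0 SD of the sum lay below those of GH3.6 and GH3.5 alone (2.88 and 4.88 CPM), so it understates the spread of the single genes. Most of the sum came from GH3.6 and GH3.5 (means of 95.5 and 67.7 CPM in Col-0), which were called in neither line. It therefore says little about GH3.3 and GH3.17 (10.3 and 10.8 CPM in Col-0), which moved apart in PP2-A5oe.

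GH3.3 (AT2G23170, chr2:9863855-9866562, minus strand), an auxin-inducible synthetase that can form the aspartate conjugate, stood at 11.1, 9.04 and 10.8 CPM for Col-0. It stood at 5.64, 4.15 and 5.88 CPM for PP2-A5oe and 8.27, 12.7 and 10.5 CPM for pp2-a5. Each PP2-A5oe library lay below each of the other 6. GH3.3 fell by 0.98 ± 0.20 on the log2 scale in PP2-A5oe (to 0.508 of Col-0, adjusted p = 0.000275) and stood at 0.02 ± 0.17 in pp2-a5 (adjusted p = 0.952). The direct difference between the lines was -1.0 ± 0.20 (adjusted p = 0.000314). GH3.2 (AT4G37390), another inducible synthetase, stood at 2.42, 3.68 and 2.80 CPM for Col-0, 1.99, 1.44 and 1.56 CPM for PP2-A5oe and 2.76, 2.32 and 3.44 CPM for pp2-a5. PP2-A5oe lay below the others here too, but the difference to Col-0, -0.82 ± 0.33, did not pass the test (adjusted p = 0.064). With upper-quartile scaling the same test called GH3.2 lower in PP2-A5oe (-0.87, adjusted p = 0.0453).

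GH3.17 (AT1G28130, chr1:9825169-9828118, plus strand), which conjugates auxin to glutamate, moved the other way. It stood at 9.51, 9.88 and 12.9 CPM for Col-0, 18.4, 17.7 and 19.2 CPM for PP2-A5oe and 16.2, 10.6 and 11.4 CPM for pp2-a5. The PP2-A5oe libraries were the 3 highest, and pp2-a5 overlapped Col-0. GH3.17 rose by 0.78 ± 0.15 in PP2-A5oe (adjusted p = 0.000175), and the value in pp2-a5 was 0.25 ± 0.16 (adjusted p = 0.308). The direct difference was 0.53 ± 0.15 (adjusted p = 0.0117) and was lost with DESeq2 (0.0514) and without pp2-a5 replicate 2 (0.108) or 3 (0.0864).

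GH3.6 and GH3.5, which were the most abundant GH3 genes, were called in neither line. GH3.6 stood at 96.3, 92.3 and 97.9 CPM for Col-0, 93.3, 86.9 and 92.5 CPM for PP2-A5oe and 86.5, 85.8 and 79.6 CPM for pp2-a5. The pp2-a5 libraries were the lowest, at -0.19 ± 0.07 against Col-0 (adjusted p = 0.0694). GH3.5, which also accepts salicylic acid, stood at 67.7, 72.5 and 62.8 CPM for Col-0, 64.5, 69.2 and 74.5 CPM for PP2-A5oe and 77.5, 67.3 and 68.3 CPM for pp2-a5, with all groups overlapping.

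PIN carriers export auxin, and their placement in the membrane sets the direction of its flow. PIN3 (AT1G70940, chr1:26742940-26746469, plus strand), known from the lateral redistribution of auxin in tropic growth, had the highest level per kilobase of exon among the members. It stood at 701.4, 722.2 and 657.7 CPM for Col-0, 765.4, 761.9 and 765.7 CPM for PP2-A5oe and 679.8, 671.9 and 622.6 CPM for pp2-a5. The PP2-A5oe libraries were the 3 highest, and Col-0 and pp2-a5 overlapped. PIN3 was 0.22 ± 0.06 higher in PP2-A5oe than in pp2-a5 (adjusted p = 0.0118), a call lost without PP2-A5oe replicate 2 (0.0511) or pp2-a5 replicate 3 (0.101). Against Col-0 it was at 0.14 ± 0.06 in PP2-A5oe (adjusted p = 0.0871) and at -0.08 ± 0.06 in the mutant (0.418).

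Of the 3 listed receptors, AFB2 fell in both lines and TIR1 and AFB3 were called in neither. AFB2 (AT3G26810, chr3:9867652-9870782, plus strand) stood at 110.0, 106.7 and 101.2 CPM for Col-0. It stood at 84.0, 84.2 and 88.4 CPM for PP2-A5oe and 77.0, 87.8 and 89.7 CPM for pp2-a5. The 6 libraries of the altered lines lay below the 3 Col-0 libraries and overlapped each other. AFB2 fell to 0.807 of Col-0 in PP2-A5oe (-0.31 ± 0.08, adjusted p = 0.00191) and to 0.801 in pp2-a5 (-0.32 ± 0.07, adjusted p = 0.00158), and the direct difference was 0.01 ± 0.08 (adjusted p = 0.963).

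TIR1 stood at 145.1, 128.9 and 133.9 CPM for Col-0, 130.6, 144.7 and 129.3 CPM for PP2-A5oe and 133.0, 132.3 and 126.2 CPM for pp2-a5, with all groups overlapping. AFB3 stood at 120.3, 122.2 and 110.9 CPM for Col-0, 134.1, 118.6 and 123.6 CPM for PP2-A5oe and 122.6, 124.7 and 133.5 CPM for pp2-a5. Its log2 fold changes were 0.09 ± 0.07 (adjusted p = 0.383) and 0.11 ± 0.07 (adjusted p = 0.312). AFB3 overlaps genes on the opposite strand. The summed level of these 3 receptors was 359.7 ± 14.8 CPM (SD, n = 3) in Col-0, 345.8 ± 3.99 CPM for PP2-A5oe and 342.3 ± 8.63 CPM for pp2-a5.

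The tested ARF genes, ARF5 and ARF19, encode activators of auxin-responsive transcription, ARF5 being the factor MONOPTEROS of vein and embryo patterning. ARF5 stood at 49.5, 55.4 and 45.2 CPM for Col-0, 49.9, 48.1 and 45.6 CPM for PP2-A5oe and 43.0, 40.3 and 47.4 CPM for pp2-a5. ARF19 stood at 74.5, 67.0 and 60.1 CPM for Col-0, 65.3, 63.6 and 66.4 CPM for PP2-A5oe and 54.3, 61.7 and 61.0 CPM for pp2-a5. Both overlapped between every line and Col-0. In pp2-a5 the log2 fold changes were -0.20 ± 0.09 (adjusted p = 0.118) for ARF5 and -0.19 ± 0.09 (0.116) for ARF19, and both were called lower without Col-0 replicate 3 (0.0345 and 0.0191). Both genes overlap other annotated genes.

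Per kilobase of exon, the mean level over all 9 libraries ran from 256.4 CPM for PIN3, 148.1 for IAA16 and 109.9 for IAA2 down to 4.10 for GH3.3, 2.37 for IAA19 and 1.15 for GH3.2. Within their classes, GH3.6 and GH3.5 held 49.3% and 37.4% of the level summed over the 7 GH3 genes. IAA16 and IAA2 held 30.0% and 22.2% of that summed over the 18 Aux/IAA genes. IAA8 and IAA13, with 5 and 3 annotated transcripts, entered that sum with 2 and 5 counts over all libraries. The part of the counting in these shares and in the order of levels was not tested. Among the 3 listed receptors, AFB3 (39.6%) and TIR1 (36.2%) held more of the summed level than AFB2. Further AFB genes lie outside the list and are not in these shares. The members called in PP2-A5oe had mean levels between 2.37 (IAA19) and 35.3 CPM per kilobase (IAA17), below PIN3, IAA16 and IAA2.

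The 8 members under the filter had few counts in all. IAA5 had 13 counts in Col-0, 24 in PP2-A5oe and 10 in pp2-a5, and IAA6, a related repressor, had 12, 16 and 7 in the same order. IAA29 had 7 counts in each group, and GH3.1 had 1, 7 and 4 counts, of which 5 came from PP2-A5oe replicate 2. IAA8, IAA9, IAA13 and GH3.4 had 2, 5, 5 and 1 counts over all 9 libraries. With no filter on low counts these 8 genes could be tested, and edgeR's quasi-likelihood test called none of them in any of the 3 comparisons. The lowest adjusted p was 0.211 in PP2-A5oe against Col-0 (GH3.1), 0.348 in pp2-a5 against Col-0 (IAA13) and 0.148 between the lines (IAA5, 1.33 ± 0.56). In a single library 3 counts were 0.469 to 0.560 CPM.

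Counts also moved with the number of annotated transcripts of a locus. Of all protein-coding loci in the annotation, 54.8% of those with 1 transcript were tested, against 24.2% of those with 5 or more, and the median level was 2.11 and 0.0269 CPM per kilobase. Among the members, 17 of 21 with 1 transcript were tested and 7 of 17 with 2 or more. IAA8 has 5 annotated transcripts and IAA13 has 3, and the 6 members not analysed here have 3 to 5. The part of the counting in these levels, and in the differences between genotypes of members with several transcripts, was not tested.

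**Figure D3:**
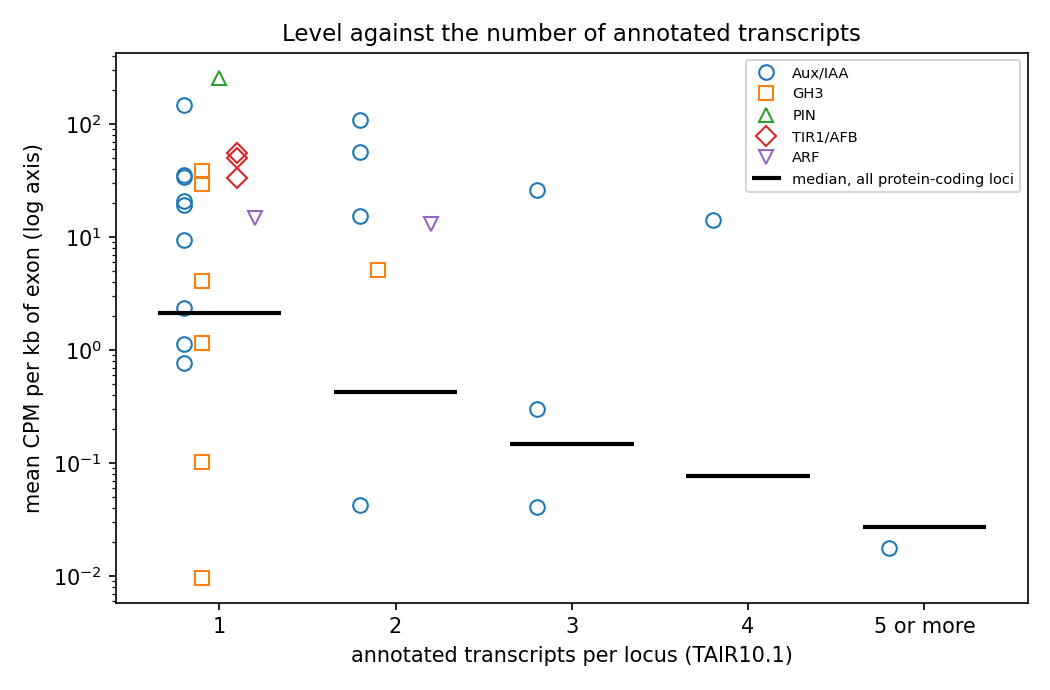
Mean level over 9 libraries in CPM per kilobase of exon (y axis, log scale) of 31 of the 32 members with counts, by class, against the number of annotated transcripts (x axis), with the median of all protein-coding loci as a black line. The median falls from 2.11 at 1 transcript to 0.0269 at 5 or more, and IAA8 lies lowest among the Aux/IAA genes.

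Beyond the 38 genes, 101 further auxin genes were listed by role, of which 88 had counts and 62 were tested. Their counts stand against 25.0% of all tested loci called in PP2-A5oe (14.5% higher, 10.5% lower) and 20.8% in pp2-a5 (12.3% higher, 8.47% lower). Of the genes that make auxin, 3 of 11 listed were tested and all 3 rose in PP2-A5oe, with 1 called in pp2-a5. DESeq2 called 1 of the 3 in PP2-A5oe and 0 in pp2-a5, and limma-voom called 2 and 1. TAA1, the aminotransferase of the first step, stood at 10.32, 10.05 and 10.46 CPM for Col-0, 13.8, 18.9 and 13.3 CPM for PP2-A5oe and 11.2, 6.94 and 10.5 CPM for pp2-a5. It rose by 0.57 ± 0.17 in PP2-A5oe (adjusted p = 0.00932), a call lost without replicate 2 of that line (0.119). YUC2 and YUC8, monooxygenases of the second step, rose by 0.67 ± 0.22 (adjusted p = 0.019) and 1.23 ± 0.44 (adjusted p = 0.0375). YUC2 was low in Col-0 replicate 3 (2.80 CPM, against 6.93 and 6.53 CPM in the other Col-0 libraries), and its calls in PP2-A5oe and in pp2-a5 (0.61 ± 0.21, adjusted p = 0.0397) were lost without it (0.152 and 0.262). The YUC8 call, at 0.986 ± 0.332 CPM (SD, n = 3) for Col-0 and 2.30 ± 0.797 CPM in PP2-A5oe, was lost in 8 of 18 alternatives, without Col-0 replicate 1 (0.161) or 2 (0.0711) or PP2-A5oe replicate 1 (0.157) or 2 (0.121) among them. No Col-0 library reached the level that the filter on low counts asked of YUC8. It passed through PP2-A5oe replicates 1 and 2 and pp2-a5 replicate 1 (2.82, 2.70 and 1.95 CPM). The count of 3 that rose thus depended in part on the group where YUC8 was high.

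Of 11 tested transport genes outside the list, 2 rose and 1 fell in PP2-A5oe (27.3% called) and 2 fell in pp2-a5 (18.2%), shares near those of all loci. PID, the kinase that phosphorylates PIN carriers, stood at 26.6, 25.8 and 27.8 CPM for Col-0, 38.6, 38.2 and 36.5 CPM for PP2-A5oe and 23.7, 22.8 and 20.5 CPM for pp2-a5. No groups overlapped, and PID rose by 0.50 ± 0.10 in PP2-A5oe (adjusted p = 0.000153), with a direct difference of 0.76 ± 0.10 to pp2-a5 (adjusted p = 4.21e-07). PIN5, a carrier of the endoplasmic reticulum, rose from 3.53 ± 1.39 to 8.32 ± 1.16 CPM (SD, n = 3) in PP2-A5oe (log2 fold change 1.21 ± 0.23, adjusted p = 0.000102). The efflux transporter ABCB19 stood at 212.2, 215.2 and 201.7 CPM for Col-0, 160.3, 173.4 and 168.9 CPM for PP2-A5oe and 158.0, 171.6 and 167.1 CPM for pp2-a5. It fell by 0.32 ± 0.06 (adjusted p = 0.00019) and 0.34 ± 0.06 (adjusted p = 0.000119), with both lines below all Col-0 libraries. The influx carrier AUX1 fell by 0.26 ± 0.06 in pp2-a5 (adjusted p = 0.00313) and stood at -0.07 ± 0.06 in PP2-A5oe (adjusted p = 0.468).

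SAUR genes, small auxin-induced RNAs of which several promote cell expansion, mostly fell where they were called. Of 21 tested, 2 rose and 11 fell in PP2-A5oe (61.9% called, median -0.41), and 2 rose and 7 fell in pp2-a5 (42.9%, median -0.32). Over all loci 10.5% fell in PP2-A5oe and 8.47% in pp2-a5. SAUR78 stood at 466.0, 489.3 and 527.4 CPM for Col-0, 325.8, 327.5 and 293.1 CPM for PP2-A5oe and 322.9, 298.4 and 315.9 CPM for pp2-a5. It fell by 0.65 ± 0.07 (adjusted p = 9.61e-10) and 0.66 ± 0.07 (adjusted p = 9.93e-10). SAUR16 fell by 0.54 ± 0.08 (adjusted p = 4.67e-06) and 0.49 ± 0.08 (2.46e-05), and SAUR64 by 0.82 ± 0.13 (5.8e-06) and 0.61 ± 0.12 (0.000326). SAUR61 to SAUR66 are closely related neighbours on chromosome 1, so the counts of SAUR64 and its copies are uncertain and not independent. These 6 copies were among the 11 SAUR genes that fell in PP2-A5oe, and 4 of them among the 7 that fell in pp2-a5. Also among the 11, SAUR14 and SAUR16 lie close together on chromosome 4, and SAUR20 and SAUR21 on chromosome 5. Whether their counts are independent was not tested. SAUR9, chosen after its values were seen, rose in both lines, by 1.18 ± 0.22 (adjusted p = 0.000108) and 1.04 ± 0.23 (0.000779).

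Of 4 tested genes listed as other auxin targets or growth genes, HB-2 and HAT2 rose in both lines. HB-2, a homeodomain-leucine zipper factor of the shade response, stood at 27.6, 25.3 and 26.0 CPM for Col-0, 76.9, 79.3 and 66.0 CPM for PP2-A5oe and 33.6, 34.7 and 32.1 CPM for pp2-a5. It rose by 1.49 ± 0.09 in PP2-A5oe (adjusted p = 3.9e-15) and by 0.35 ± 0.10 in pp2-a5 (adjusted p = 0.011), and the lines differed by 1.15 ± 0.09 (adjusted p = 2.02e-12). The pp2-a5 call of HB-2 was lost without pp2-a5 replicate 2 (0.0528). HAT2, an auxin-inducible factor of the same class, rose by 0.74 ± 0.10 (adjusted p = 6.83e-07) and 0.68 ± 0.10 (3.48e-06).

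Of 6 tested further receptors and ligase parts, SKP2A, an auxin-binding F-box protein, rose in PP2-A5oe (0.38 ± 0.09, adjusted p = 0.00272), and TMK1, a receptor-like kinase of auxin signalling at the cell surface, fell in pp2-a5 (-0.27 ± 0.06, adjusted p = 0.00182). Of 9 tested genes of conjugation and turnover, GH3.9 was lower in PP2-A5oe (-0.40 ± 0.15, adjusted p = 0.0436), a call lost in 10 of 19 alternatives, among them without Col-0 replicate 1 (0.319), PP2-A5oe replicate 1 (0.0951) or 2 (0.194) and pp2-a5 replicate 2 (0.0515) or 3 (0.0524). No gene of the 6 other ARFs or the 2 other Aux/IAA genes tested was called against Col-0 by edgeR's quasi-likelihood test. At an unadjusted p under 0.05 the counts were 1 and 1 for PP2-A5oe and 2 and 1 for pp2-a5, and DESeq2 and limma-voom called 0 of them. The highest levels among them were those of ARF4 (50.3 ± 7.58 CPM for Col-0, SD, n = 3) and IAA18 (52.1 ± 5.19 CPM), which overlapped in all groups.

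**Figure D4:**
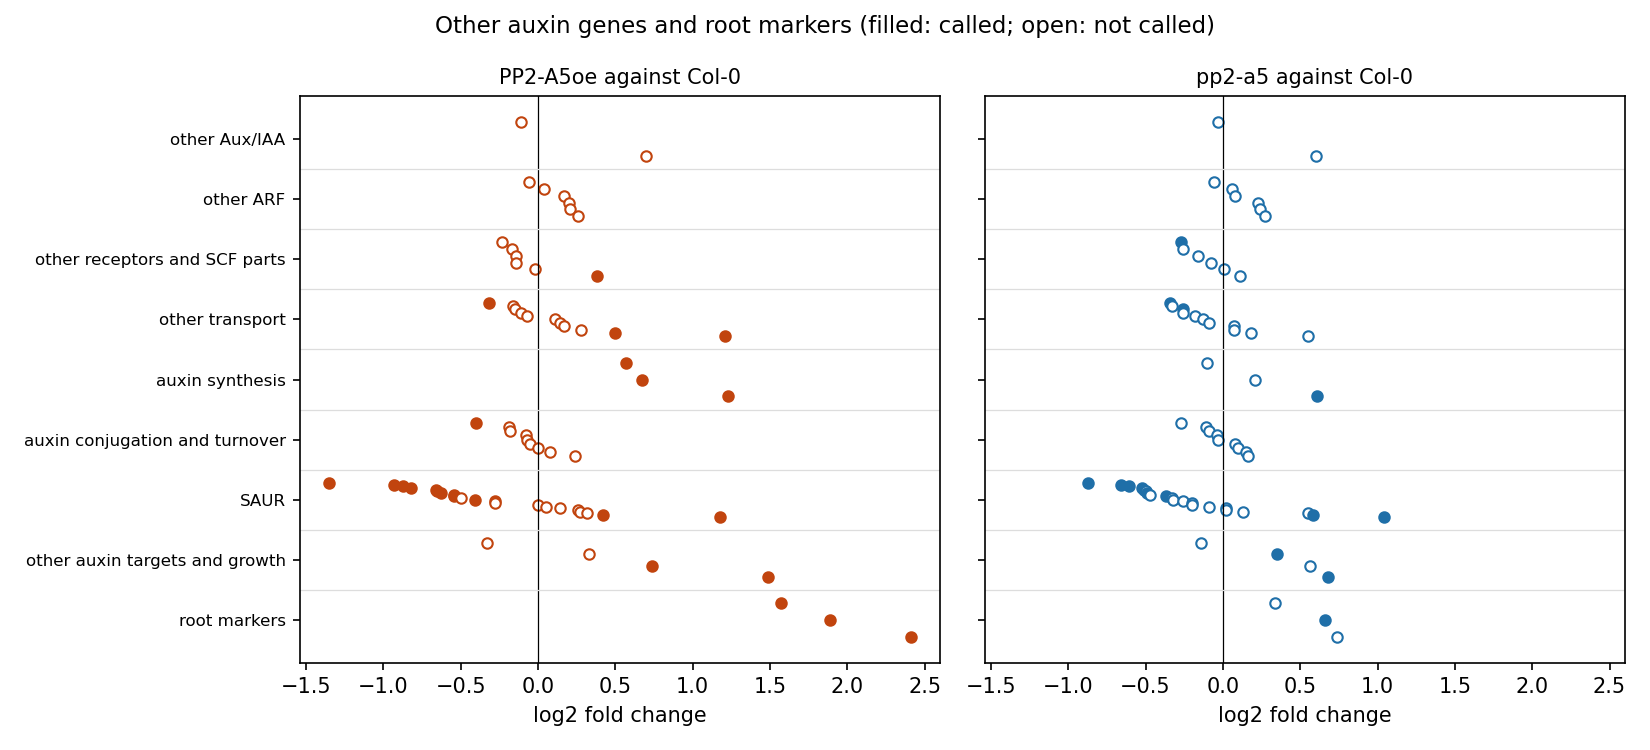
Log2 fold change against Col-0 (x axis) of the tested genes of each further list and of the root markers (rows), for PP2-A5oe on the left and pp2-a5 on the right; filled points had an adjusted p under 0.05. SAUR genes lie mostly to the left of 0 in both panels, and the 3 tested root markers lie at 1.57 to 2.41 in PP2-A5oe. The highest of these, CASP1, passed the filter only through its counts in PP2-A5oe.

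Root markers moved in the same direction as the Aux/IAA and synthesis genes that rose in PP2-A5oe. Their summed level was 8.87 to 11.02 CPM for Col-0, 30.5 to 39.4 CPM for PP2-A5oe and 13.3 to 16.1 CPM for pp2-a5. All 9 had counts in every group, and the 3 tested ones rose in PP2-A5oe: LRX1 by 1.57 ± 0.23 (adjusted p = 2.68e-06), PRP3 by 1.89 ± 0.17 (1.42e-10) and CASP1 by 2.41 ± 0.43 (4.74e-05). CASP1 passed the filter on low counts only through PP2-A5oe, with 10 counts in Col-0, 54 in PP2-A5oe and 18 in pp2-a5. Its test thus depended on the group where it was high. The other root markers were under the filter. In pp2-a5 PRP3 rose by 0.66 ± 0.20 (adjusted p = 0.0177). Their part in the values of IAA1, IAA14, IAA17, IAA19, GH3.17, PIN5, TAA1 and the YUC genes was not tested. Flower markers summed to 14.2 to 16.6 CPM for Col-0, 17.1 to 20.1 CPM for PP2-A5oe and 14.9 to 19.7 CPM for pp2-a5, and none of the 3 tested was called.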

How the data were processed

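Polyadenylated RNA of 9 rosette libraries, 3 per genotype, was counted by the authors, and the deposited values are whole-number counts per locus against TAIR10 per the submitters' processing notes. The aligner, counter, gene models and use of strand were not given in the sources used here. Rows of one locus were summed (294 loci had 2 entries). Names, positions, transcript numbers and promoter windows came from RefSeq TAIR10.1, which matched 21952 loci and left 203 unmatched.

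Counts were fitted in R 4.3.3 with edgeR 4.0.16: filterByExpr (minimum count 10, minimum total 15; 13975 loci with 99.76% of counts), TMM scaling, and 1 robust quasi-likelihood model of all 9 libraries (6 residual degrees of freedom; biological coefficient of variation 6.89%). Adjusted p-values are Benjamini-Hochberg over all tested loci, called under 0.05 with no fold threshold, and the standard error is the size of the log2 fold change divided by the root of its F statistic. The fit was also run on counts simulated from its own means and spread. Such counts meet its assumptions, so they say nothing on libraries that depart from them, such as Col-0 replicate 3. How replicates were grown is not in the labels, and p-values cover the spread of these 9 libraries alone, which may be technical. Limits from depth cover counting error only.

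The members, lists and the rule for named genes were chosen with earlier results of these data known, so lists are described by counts and medians with no test. The values of 1 tested member are not reported here, though it is in the counts and medians. By that rule, values in every library are given for members called against Col-0 (up to 4 per class and comparison) and for the 1 or 2 most abundant uncalled ones of a class, and up to 3 called genes with the smallest adjusted p are named from each further list. Other settings tried were upper-quartile and RLE scaling, DESeq2 1.42.0, limma-voom (limma 3.58.1), no filter, at least 10 CPM in 3 libraries, only the groups compared, a replicate block, leaving out each library, and leaving out both libraries of high mitochondrial share.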

Additional observations from a re-analysis of the deposited data

How the results depend on the processing

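The 19 alternatives reversed none of the 16 member calls, and 10 of the 16 held in every alternative that tested them: IAA1 and AFB2 in both lines, IAA17, GH3.3 and GH3.17 in PP2-A5oe against Col-0, and IAA14, IAA17 and GH3.3 between the lines. The other 6 were lost in at least 1 (IAA14, IAA19, IAA26, and IAA16, GH3.17 and PIN3 between the lines). Of 22 calls of named genes outside the members, 16 held throughout. Leaving out 1 library gave 3 to 7 members higher and 2 to 2 lower in PP2-A5oe than in Col-0 (5 and 2 with all libraries; 3 without Col-0 replicate 1). It gave 1 to 2 higher and 1 to 3 lower in pp2-a5 (2 and 1 with all; 1 higher without Col-0 replicate 1 or 2, 2 lower without Col-0 replicate 2 and 3 lower without Col-0 replicate 3). Between the lines it gave 2 to 6 higher and 1 to 1 lower in PP2-A5oe (5 and 1 with all; 3 without PP2-A5oe replicate 2 and 2 without pp2-a5 replicate 3). Members lower in pp2-a5 numbered 4 with upper-quartile scaling (AFB2, IAA7, IAA16 and GH3.6), which shifts the median log2 fold change of all loci from -0.01 to -0.045, and 3 without both libraries of high mitochondrial share (AFB2, ARF5 and ARF19). The causes were not tested.

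Replicate numbers did not pair the libraries: deviations of same-numbered libraries correlated at -0.18 to 0.062, and 0 of 9 libraries correlated best with their own number. With the replicate block, 4 members were higher (IAA19 was not called, adjusted p = 0.0509) and 2 lower in PP2-A5oe, 2 higher and 1 lower in pp2-a5, and 5 higher and 1 lower between the lines; over all loci 3185, 2575 and 1571 were called. IAA19 could not be tested at the filter of 10 CPM. With no filter, 0 of the 8 members of low counts were called, and DESeq2 called 2635, 2096 and 1257 loci.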
